A study of Mus musculus with 6 samples.

Results

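The genes described here are 10 regulators of epithelial identity: the Grainyhead-like factors Grhl1, Grhl2 and Grhl3, the zinc finger factors Ovol1 and Ovol2, the Ets factors Elf3 and Ehf, the splicing factors Esrp1 and Esrp2, and Gata3. They are found in the data by gene symbol, with no threshold on their values, and make up 10 of the 21240 genes in the count table. Their RNA was measured by stranded total RNA-seq in NMuMG cells, an immortal epithelial line from normal mouse mammary gland that is widely used to follow the epithelial-to-mesenchymal transition (EMT) under transforming growth factor beta (TGFβ). There were 3 groups of 2 biological replicates, 6 libraries in all: vehicle for 2 h (veh), 5 ng/ml TGFβ1 for 2 h, and 5 ng/ml TGFβ1 for 12 h. All cells were kept without serum and insulin for 6 h before treatment. Vehicle was sampled at 2 h only, so that in the 12 h comparison the effect of TGFβ1 and that of longer deprivation of serum and insulin cannot be told apart. The labels name no genetic change in any group, and the model is 1 established line in culture, without stroma.

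Epithelial cells hold a set of transcription factors that switch on genes of adhesion, polarity and barrier function and hold down the EMT-inducing factors of the Snail and Zeb families. Grainyhead-like factors bind and open epithelial enhancers, Ovol factors repress Zeb genes, Elf3 and Ehf are epithelium-specific members of the Ets family, and Gata3 directs luminal differentiation in the mammary gland. Esrp1 and Esrp2 bind RNA and promote the epithelial exon choice in genes such as Fgfr2, Cd44 and Ctnnd1. In the textbook course of EMT these regulators decline as Snail and Zeb factors rise.

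Libraries held 14705886 to 23786993 counts, so that 3 counts, taken here as the limit of detection, equalled 0.131 to 0.191 CPM, that is, counts scaled to a common library size. Replicates of a group correlated with r of 0.978 to 0.993 across genes on the log2 scale. The edgeR quasi-likelihood test was run over the 11080 genes that reached 2 CPM in 2 or more libraries, and a gene was called at a Benjamini-Hochberg adjusted p under 0.05. TGFβ1 target genes responded in the treated libraries, with log2 fold changes (log2FC) of 2.07 at 2 h and 2.65 at 12 h for Smad7, which encodes an inhibitory Smad, both called. Luminal keratin RNAs were abundant: the summed level of 8 luminal markers was 4958 to 5778 CPM in veh, 6440 to 6474 CPM at 2 h and 10320 to 10370 CPM at 12 h. The markers did not move as one: at 12 h 3 of the 5 tested were called higher and 1 lower, where 21.5% of all tested genes were called lower. The higher count includes Krt7, which passed the filter only through treated libraries, so that this count is not read against all genes. The log2FC of Krt7, 1.605, was 1.24 without the second veh library and 1.32 without the first 12 h library, and it was not called there. Krt8 (log2FC 1.63) and Krt18 (1.53) carried the rise of the sum, whereas Krt19 fell from 1754 to 454.6 CPM (log2FC -1.95, adjusted p = 0.000103). Epcam was at 0.18 CPM in veh, and Cldn3 and Cldn7 had 0 counts in both veh libraries. Summed markers of other cell types were low and moved in part with treatment. In veh, at 2 h and at 12 h, 7 fibroblast markers summed to 3.57 to 4.59, 8.80 to 8.92 and 14.6 to 15.4 CPM, with Thy1 at 0 in every library. Col1a1 carried most of that rise (means of 0.960, 5.78 and 10.9 CPM), while Pdgfra stood at 2.46, 2.45 and 2.63 CPM and Dcn at 0.326, 0.329 and 0.022 CPM. Pdgfrb also rose, from 0 and 0 counts in veh to 2 and 3 at 2 h and 22 and 26 at 12 h. For 5 basal and myoepithelial markers the sums were 2.93 to 5.29, 9.10 to 12.2 and 6.05 to 9.39 CPM. Most of this was Krt14, with means of 3.40, 9.24 and 6.38 CPM. For 4 endothelial markers they were 0.176 to 0.255, 0.353 to 0.354 and 1.74 to 1.95 CPM. Cdh5 carried this rise, with a mean of 1.77 CPM at 12 h, where Kdr and Tek had 0 counts. For 5 leukocyte markers they were 6.94 to 7.45, 6.52 to 7.21 and 5.18 to 6.93 CPM, with Cd3e at 0 throughout. Cd68 made up most of these sums, with means of 6.25, 6.01 and 5.07 CPM. The part of these markers in the results was not tested, and in bulk RNA fewer cells of a type cannot be told apart from less RNA per cell.

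Of the 10 factors, 4 were expressed above the filter in every library (Ehf, Elf3, Grhl1 and Esrp2), and the other 6 were below it (Grhl2, Gata3, Esrp1, Ovol2, Ovol1 and Grhl3). Their time courses differed: Ehf and Elf3 were lower at 12 h, Grhl1 was higher at 2 h and back at the veh level at 12 h, and Esrp2 was not called in any comparison. To compare levels between genes, CPM were divided by the exon length of the gene in kilobases. On this per-length scale, Ehf was the most abundant member in veh at 25.02 ± 2.73 (SD, n = 2) CPM per kb, followed by Esrp2 at 15.5 ± 1.79 and Elf3 at 15.2 ± 5.69. The levels of Esrp2 and Elf3 overlapped, and Ehf stood above both in each veh library. Grhl1 was far lower at 1.76 ± 0.149 CPM per kb, and Grhl2 and Gata3 reached only 0.247 and 0.0622 CPM per kb. At 12 h the order was Esrp2 at 16.7 ± 2.03, Elf3 at 6.30 ± 0.997, Ehf at 2.43 ± 0.644 and Grhl1 at 1.75 ± 0.0405 CPM per kb, with no overlap between neighbors in this order. Ehf thus moved from the first to the third place among the 4, and Esrp2 to the first. At 2 h Esrp2 at 19.6 ± 0.709, Ehf at 19.6 ± 6.23 and Elf3 at 16.3 ± 0.179 CPM per kb were not separated beyond the spread of Ehf.

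**Figure D1:**
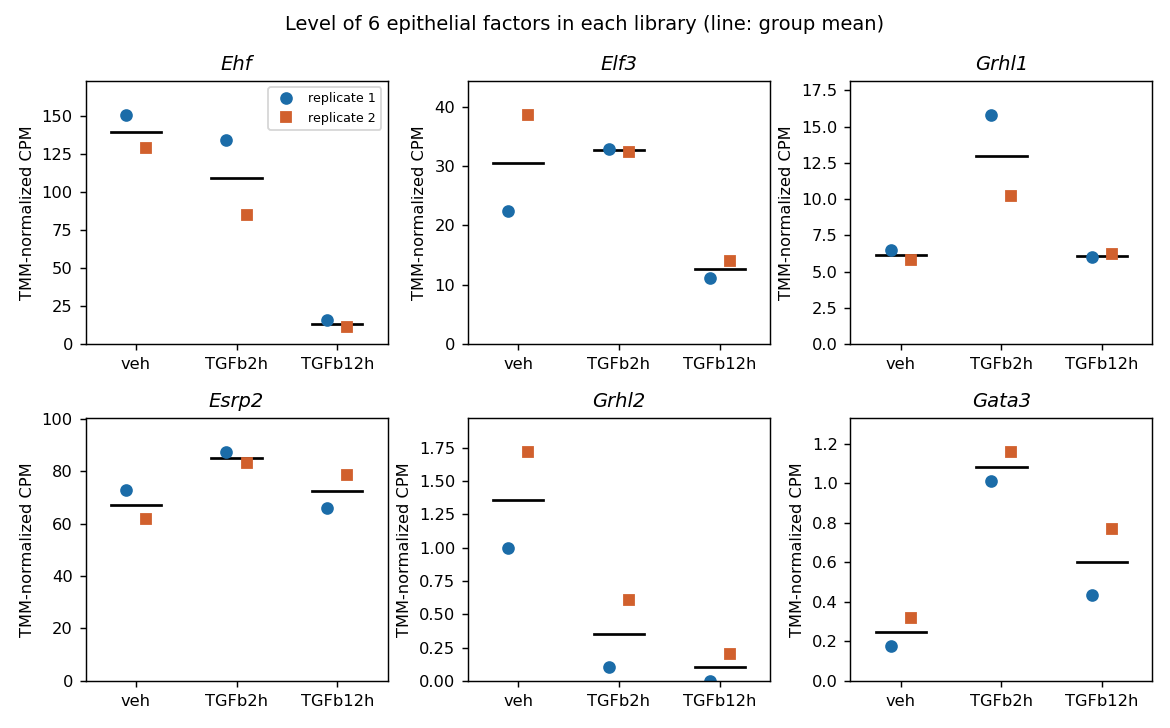
CPM scaled by TMM factors (y axis, linear, starting at 0, with its own range in each panel) of Ehf, Elf3, Grhl1, Esrp2, Grhl2 and Gata3 in veh, after 2 h of TGFβ1 (TGFb2h) and after 12 h (TGFb12h), with 1 symbol per library and a line at the mean of each group of 2. Ehf drops from 128.7 to 150.3 CPM in veh to 11.03 to 16.11 CPM at 12 h, Esrp2 stays between 61.7 and 87.3 CPM, and Grhl2 and Gata3 are below 2 CPM throughout.

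Ehf (Entrez 13661; NCBIM37 chromosome 2, 103103590 to 103143435, minus strand) encodes an Ets factor of glandular epithelia. It had 150.3 and 128.7 CPM in the 2 veh libraries, 133.9 and 84.8 CPM at 2 h, and 16.11 and 11.03 CPM at 12 h. The veh and 2 h libraries overlapped, and both 12 h libraries lay far below all others. At 12 h Ehf was 10.3-fold lower than in veh, with a log2FC of -3.36 (SE 0.281, 95% CI -4.03 to -2.68, adjusted p = 0.000228). Relative to 2 h, it was 8.03-fold lower at 12 h (log2FC -3.01, SE 0.278, adjusted p = 0.000692). At 2 h its log2FC was -0.35 (SE 0.251, 95% CI -0.95 to 0.25, adjusted p = 0.401), which was not called in this fit. That value moved with single libraries: it was -0.74 without the first 2 h library and -0.059 without the second. In an edgeR fit with a replicate block it was -0.38 and called (adjusted p = 0.0351), but the labels do not say that equal replicate numbers mark a shared culture. The fall at 12 h was called under each of the 15 alternative settings tried, with log2FC between -3.68 and -3.13.

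Elf3 (Entrez 13710; NCBIM37 chromosome 1, 137150151 to 137155049, minus strand) encodes another epithelium-specific Ets factor. For the promoter of Elf3 the 250 bases before the RefSeq start (GRCm38.p6, minus strand, chr1:135258473-135258722) are shown because Elf3 was called lower at 12 h than in veh and has an entry in the promoter table. Capitals mark matches to the motifs searched, here an E-box CACCTG starting 140 bases before the start, the core bound by Snail and Zeb repressors, and GTCTG at 120 bases before it, the reverse complement of the Smad element CAGAC.
Elf3: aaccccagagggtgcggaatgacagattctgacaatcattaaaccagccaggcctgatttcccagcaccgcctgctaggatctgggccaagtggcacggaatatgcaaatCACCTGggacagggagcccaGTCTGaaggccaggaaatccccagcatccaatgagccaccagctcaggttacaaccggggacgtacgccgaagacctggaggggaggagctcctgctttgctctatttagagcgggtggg
These motifs are common: CACCTG in either orientation was found in 20.2% and CAGAC in 49.6% of the 32851 promoter windows of 250 bases before to 50 after a start, and a match is not evidence of binding. Elf3 RNA was at 22.4 and 38.5 CPM in veh, 32.9 and 32.4 CPM at 2 h, and 11.19 and 14.01 CPM at 12 h. The 2 veh libraries differed most among themselves, and still both 12 h libraries lay below every other library. Elf3 was 2.42-fold lower at 12 h than in veh (log2FC -1.27, SE 0.264, 95% CI -1.91 to -0.64, adjusted p = 0.00857). It was 2.59-fold lower at 12 h than at 2 h (log2FC -1.37, SE 0.263, adjusted p = 0.00869). At 2 h the log2FC was 0.099 (SE 0.255, 95% CI -0.51 to 0.71, adjusted p = 0.829), and its sign turned with the scaling. Neither call held without the first 12 h library, a fit that leaves 1 library in that group. The log2FC there was -1.14 against veh and -1.23 against 2 h, beside -1.27 and -1.37 with all libraries. Without the second veh library the fall against veh was -0.83 with an adjusted p of 0.0250.

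Grhl1 (Entrez 195733; NCBIM37 chromosome 12, 25257152 to 25302256, plus strand) encodes a Grainyhead-like factor with a role in desmosomal adhesion. The RefSeq table gives 2 starts for Grhl1, and both upstream windows are shown (GRCm38.p6, plus strand) because Grhl1 was the only called factor at 2 h. The window of the first start, chr12:24572037-24572286, holds none of the 6 motifs. The window of the second start, chr12:24580469-24580718, holds CAGAC at 58 bases and CTTCCT, the reverse complement of the Ets element AGGAAG, at 201 bases before the start, in capitals.
Grhl1, first start: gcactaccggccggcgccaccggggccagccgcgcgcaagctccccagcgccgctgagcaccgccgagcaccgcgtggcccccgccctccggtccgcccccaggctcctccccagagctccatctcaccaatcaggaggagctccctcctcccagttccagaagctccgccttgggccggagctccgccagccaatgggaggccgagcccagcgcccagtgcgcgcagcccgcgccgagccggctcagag
Grhl1, second start: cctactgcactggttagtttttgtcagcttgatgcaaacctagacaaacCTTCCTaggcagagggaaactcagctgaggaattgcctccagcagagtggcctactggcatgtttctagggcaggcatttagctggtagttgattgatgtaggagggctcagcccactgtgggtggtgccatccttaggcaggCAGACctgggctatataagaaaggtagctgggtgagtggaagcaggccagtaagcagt
AGGAAG in either orientation occurred in 35.4% of all promoter windows. The counts are summed over the gene and do not tell which start was used. Grhl1 had 6.53 and 5.79 CPM in veh, 15.8 and 10.2 CPM at 2 h, and 6.01 and 6.21 CPM at 12 h. Both 2 h libraries lay above the other 4, and the 12 h libraries lay within the range of the veh libraries. At 2 h Grhl1 was 2.11-fold higher than in veh (log2FC 1.08, SE 0.245, 95% CI 0.49 to 1.66, adjusted p = 0.0311). At 12 h the log2FC against veh was -0.014 (SE 0.248, 95% CI -0.61 to 0.58, adjusted p = 0.971). From 2 h to 12 h the RNA fell 2.13-fold (log2FC -1.09, SE 0.242, adjusted p = 0.0148). The rise at 2 h was higher in 2 of 2 libraries but was a narrow call. Its adjusted p was 0.118 and 0.150 without the first and second veh library, 0.0696 without the first 2 h library (log2FC 0.71), 0.0873 and 0.0868 without the first and second 12 h library, and 0.0860 in a fit of these 2 groups alone. Without the second 2 h library the log2FC was 1.35 and the call remained (adjusted p = 0.00774). The later fall was also lost without either 12 h library, with adjusted p-values of 0.102 and 0.0919.

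Esrp2 (Entrez 77411; NCBIM37 chromosome 8, 108654219 to 108660874, minus strand) encodes the only Esrp splicing factor with appreciable RNA in these cells. It had 72.7 and 61.7 CPM in veh, 87.3 and 82.9 CPM at 2 h, and 66.1 and 78.5 CPM at 12 h. Both 2 h libraries were above the others, whereas veh and 12 h overlapped. The log2FC at 2 h was 0.34 (SE 0.132, 95% CI 0.024 to 0.656), and the adjusted p of 0.143 missed the threshold. At 12 h the log2FC against veh was 0.10 (SE 0.132, 95% CI -0.21 to 0.42, adjusted p = 0.559), with a sign that turned under total-count scaling. Between the times it was -0.24 (SE 0.131, 95% CI -0.55 to 0.079, adjusted p = 0.210). The interval at 12 h excludes a fall of the size seen for Ehf or Elf3 in the same libraries.

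The remaining Grainyhead-like factor with detectable RNA, Grhl2 (Entrez 252973; chromosome 15, 37162791 to 37293324, plus strand), is an activator of epithelial junction genes. It had 17 and 27 counts in veh, 2 and 12 counts at 2 h, and 0 and 4 counts at 12 h. Both veh libraries exceeded all treated libraries, but every value was below 2 CPM. The summed counts scaled to library size were 3.81-fold lower at 2 h (95% interval 2.05 to 7.52) and 14.3-fold lower at 12 h (5.20 to 54.7), where the intervals cover counting error only. With no filter on low counts, edgeR gave a log2FC of -3.74 for Grhl2 at 12 h (SE 1.01, adjusted p = 0.0195) and -1.92 at 2 h (SE 0.833, adjusted p = 0.214), over 16115 genes. Between 2 h and 12 h the counts were 14 and 4, a ratio of 3.75 with an interval of 1.18 to 15.7, and the test with no filter did not call it (adjusted p = 0.317).

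Gata3 (Entrez 14462; chromosome 2, 9778705 to 9811661, minus strand) moved the other way. It had 3 and 5 counts in veh, 20 and 23 counts at 2 h, and 10 and 15 counts at 12 h, with no overlap between the groups. The ratio of summed counts to veh was 4.44 at 2 h (interval for counting error 2.06 to 10.9) and 2.41 at 12 h (1.05 to 6.18). With no filter, edgeR's adjusted p for Gata3 was 0.0467 at 2 h (log2FC 2.12, SE 0.569), 0.153 at 12 h (log2FC 1.26, SE 0.601) and 0.247 between the times (log2FC -0.86, SE 0.480). Even the highest of these Gata3 counts corresponded to under 2 CPM, a very low level for a factor that is abundant in luminal cells of the gland.

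Of the 4 other factors, Esrp1 (Entrez 207920) had 1 and 2 counts in veh, 3 and 3 at 2 h, and 2 and 1 at 12 h. Ovol2 (Entrez 107586), a repressor of Zeb1, had 0 and 0 counts in veh, 4 and 1 at 2 h, and 0 and 1 at 12 h. Ovol1 (Entrez 18426) had 0 and 1 counts in veh, 0 and 1 at 2 h, and 0 and 0 at 12 h. Grhl3 (Entrez 230824) had 1 count in the second 2 h library and 0 in the other 5. Esrp1, Ovol1 and Grhl3 thus never passed 3 counts, and differences between groups were not detectable at this depth. A count of 0 allows up to 3 counts, which is 0.191 CPM in the shallowest library. With no filter, edgeR's adjusted p for these 4 factors was 0.358 or higher in each of the 3 contrasts.

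**Figure D2:**
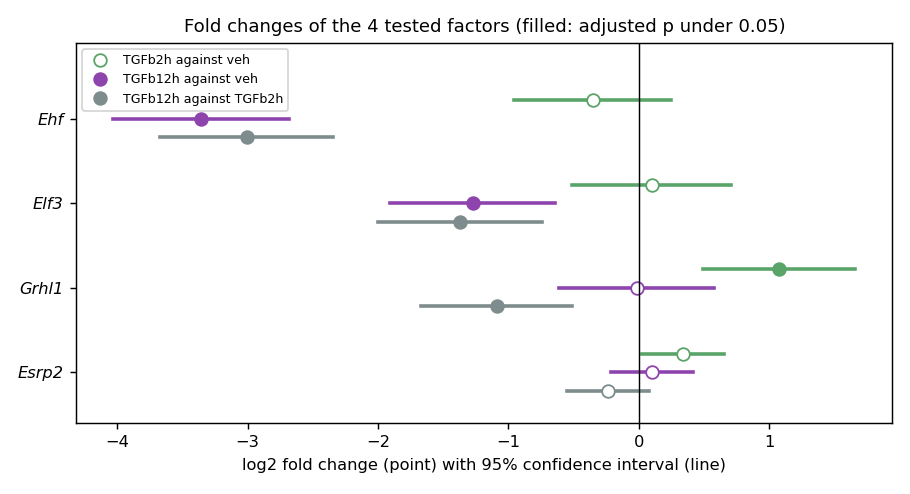
Log2FC (x axis) of the 4 tested factors for 2 h against veh, 12 h against veh and 12 h against 2 h, with lines for the unadjusted 95% confidence interval of edgeR's quasi-likelihood fit (n = 2 libraries per group) and filled symbols for calls at an adjusted p under 0.05. The interval of Ehf at 12 h (-4.03 to -2.68) is far from 0, that of Grhl1 against veh is above 0 at 2 h (0.49 to 1.66) but not at 12 h, and no symbol of Esrp2 is filled.

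Against all genes, the factors were counted by direction. At 2 h, 1 of the 4 tested factors was called higher, Grhl1, where 9.91% of all tested genes were. By edgeR 0 of the 4 were called lower, where 5.25% of all tested genes were. The count of lower factors was also 0 at an unadjusted p under 0.05, by limma-voom and by DESeq2, but it was 1 (Ehf) in the fit with a replicate block. At 12 h, 2 of the 4 were called lower (Ehf and Elf3), where 21.5% of all tested genes were. None was called higher by edgeR, where 21.8% of all tested genes were, and that count was likewise 0 unadjusted, by limma-voom and by DESeq2. From 2 h to 12 h, 3 of the 4 were called lower (Ehf, Elf3 and Grhl1), where 18.9% of all tested genes were. The count called higher in that contrast was 0 by edgeR, where 15.2% of all tested genes were, and 0 unadjusted, by limma-voom and by DESeq2. The median log2FC of the 4 factors was 0.22 at 2 h, -0.64 at 12 h and -1.23 between the times, against -0.0091, 0.015 and 0.0092 for all tested genes. With only 4 tested factors these shares are coarse. The 3 contrasts share libraries, so that their counts are not independent of each other. The background itself moved with scaling: higher genes made up 65.4% of the calls at 2 h and 50.3% at 12 h, but 46.7% and 37.5% when libraries were scaled by total counts.

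The relatives of these factors in the same gene families gave a mixed picture at 12 h. Of 11 relatives, 10 had a row in the count table and 5 were tested. Tfcp2l1, a Grainyhead relative, fell from 34.4 and 30.2 CPM in veh to 3.35 and 2.98 CPM at 12 h (log2FC -3.35, SE 0.212, adjusted p = 9.04e-05), beside -3.36 for Ehf. Gata6 fell as well (log2FC -1.004, adjusted p = 0.00242), whereas Gata3 counts were higher. Tfcp2 was called slightly higher (log2FC 0.46, adjusted p = 0.0299), a call lost when any 1 of the 4 veh and 12 h libraries was left out (adjusted p of 0.0942 to 0.149) and by total counts (adjusted p = 0.110). The median of the 5 was -0.12. At 2 h Gata6 alone of the 5 was called, at a log2FC of -0.71 (adjusted p = 0.0248), where 5.25% of all tested genes were called lower. That call was lost when any 1 library other than the first of the 2 h group was left out. The log2FC with a library left out ran from -0.88 to -0.58. With the replicate block 3 relatives were called lower at 2 h. The mammary Ets factor Elf5 and Spdef were below the filter, as were Gata1, Gata2 and Gata5.

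Of 12 other transcription factors of epithelia, 6 were tested. At 12 h 3 of them were called lower and 0 higher, where 21.5% and 21.8% of all tested genes were. With no filter on low counts 1 of the list was called higher. Foxa2 and Klf5 were among the 3 that fell. Foxa2, a pioneer factor of glandular epithelia, had 84.3 ± 1.47 CPM in veh, 21.96 ± 3.88 CPM at 2 h and 13.7 ± 1.29 CPM at 12 h (SD, n = 2), a log2FC of -1.94 at 2 h (adjusted p = 0.000725) and -2.62 at 12 h (adjusted p = 7.97e-05). The corresponding log2FC at 2 h were -0.35 for Ehf and 0.099 for Elf3, neither of them called in the fit without a replicate block. Klf5, a zinc finger factor of epithelia, fell at 12 h (log2FC -1.27, adjusted p = 0.00203), beside -1.27 for Elf3. Trp63, Sox10 and 3 Tfap2 genes were below the filter, as were 6 of the 10 factors of the main group. Sox10 counts went the other way: 0 and 0 in veh, 28 and 15 at 2 h, and 15 and 9 at 12 h.

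Of 6 EMT transcription factors, which oppose the epithelial regulators, 5 were tested and Snai1, Zeb1 and Zeb2 were called higher at both times. Snai1, a Snail repressor, passed the filter only through the treated libraries in which it was high, so that the count is not read against all genes. With 10 counts required in every library Snai1 left the test and 2 were called. It had 2 and 3 counts in veh, so that its change can only be bounded: it was at least 53.2-fold higher at 2 h and at least 61.1-fold higher at 12 h, computed against 3 counts per veh library. Zeb2 (log2FC 2.12, adjusted p = 7.08e-05) and Zeb1 (log2FC 1.48, adjusted p = 0.000161) were called at 12 h. At 2 h their log2FC were 0.72 (adjusted p = 0.0114) and 0.55 (adjusted p = 0.0216), calls that were lost without either veh or either 12 h library (adjusted p of 0.0505 to 0.0772 and 0.0690 to 0.146). Zeb1 stood at 27.1 CPM in veh, while its repressor Ovol2 was near the limit of detection.

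Genes of junctions and the epithelial surface, which include known targets of Grhl2, moved in both directions. Of 20 such genes, 10 were tested, and at 12 h 4 were called lower, where 21.5% of all tested genes were, and 3 higher. The higher count includes Cldn4, which passed the filter only through the treated libraries in which it was high, and was 2 with 10 counts required in every library or without either 12 h library. The polarity genes Crb3 (log2FC -2.01, adjusted p = 0.000202) and Llgl2 (log2FC -1.70, adjusted p = 8.45e-05) and the tight junction scaffold Tjp3 (log2FC -2.35, adjusted p = 0.000383) fell. Cdh1, which encodes E-cadherin, was at 421 and 363 CPM in veh and at 407 and 337 CPM at 12 h, with a log2FC of -0.075 (SE 0.177, 95% CI -0.50 to 0.35, adjusted p = 0.762). Cdh1 thus overlapped between veh and 12 h, where Ehf did not. Cldn4, a claudin of tight junctions, had 2 and 1 counts in veh and was at least 106-fold higher at 2 h and at least 358-fold higher at 12 h. The calls of Cgn (log2FC -0.74), Lsr (0.71) and Dsp (0.65) at 12 h were smaller, and these 3 genes were named after their values were seen. The call of Dsp was lost without either 12 h library (adjusted p of 0.0517 to 0.0554). Epcam, Rab25, Spint1, St14 and Prss8 were below the filter.

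For the splicing factors, the question was whether RNA of other regulators or of their target genes moved where that of Esrp2 was not called. Of 14 other splicing regulators, 13 were tested, and at 12 h 2 were called lower and 2 higher, with a median log2FC of -0.064. Of all tested genes 21.5% were called lower and 21.8% higher at 12 h, so that neither count exceeded the background share. Rbm47, an epithelial RNA-binding protein, had 173 and 135 CPM in veh, 88.0 and 66.1 CPM at 2 h and 24.4 and 21.4 CPM at 12 h, with each group below the one before. Its log2FC was -0.9996 at 2 h (SE 0.184, adjusted p = 0.0153) and -2.75 at 12 h (SE 0.196, adjusted p = 0.000139). The 2 h call of Rbm47 was lost without the first veh library or either 12 h library (adjusted p of 0.0516 to 0.0830). Mbnl3 fell at 12 h (log2FC -2.34, adjusted p = 0.000272), and Qk, which promotes mesenchymal exon choice, rose (log2FC 1.11, adjusted p = 0.00520). Rbfox2 was called higher with a log2FC of 0.66 (adjusted p = 0.00612), a gene named after its value was seen. Under 6 of the 15 alternatives, 4 regulators rather than 2 were called lower: total counts, DESeq2, the replicate block, a fit of only these groups, and without either 2 h library.

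All 10 genes chosen for exons that Esrp proteins regulate were tested, and at 12 h 2 were called higher and 2 lower, near the shares of all tested genes (21.8% and 21.5%). Fgfr2, whose epithelial exon is the best known Esrp target, fell from 45.9 and 43.2 CPM in veh to 3.66 and 4.57 CPM at 12 h (log2FC -3.44, SE 0.167, adjusted p = 4.68e-05), beside -3.36 for Ehf. Ctnnd1, encoding p120 catenin, rose (log2FC 1.13, adjusted p = 0.000493). Cd44 (log2FC 0.60, adjusted p = 0.0110) was called higher and Magi1 (-0.61, adjusted p = 0.0428) lower by less, and both were named after their values were seen. The call of Cd44 was lost without the second veh or the first 12 h library (adjusted p of 0.0696 and 0.0932). That of Magi1 was lost without the first veh library or either 12 h library (adjusted p of 0.151 to 0.217). These are counts summed over each gene, and exon choice was not measured here.

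**Figure D3:**
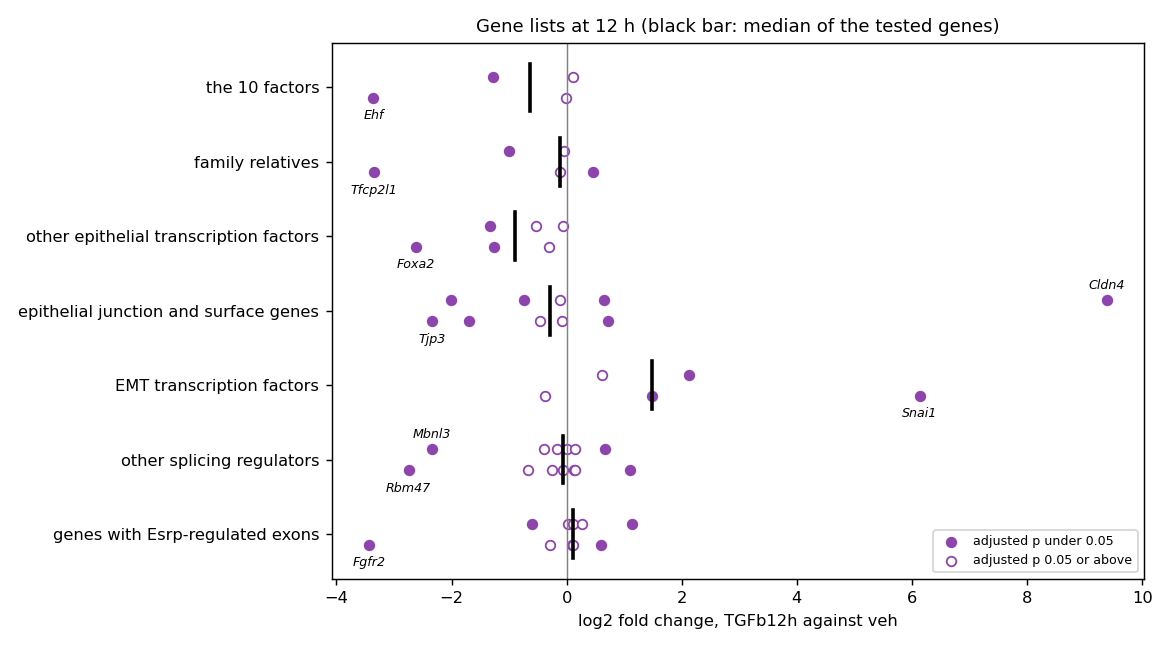
Log2FC of TGFβ1 12 h against veh for each tested gene of the 10 factors and of the 6 related gene lists, 1 point per gene, with the median of each list as a bar and called genes filled. Ehf, Tfcp2l1 and Fgfr2 stand at -3.36, -3.35 and -3.44, while the splicing regulators and the genes with Esrp-regulated exons scatter around 0. The points of Snai1 and Cldn4 depend on veh counts of at most 3 and are not exact.

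To see whether the changes extended to the genomic surroundings, the counted genes next to each factor were examined on NCBIM37. The counts of called neighbors at 12 h stand beside 21.8% called higher and 21.5% called lower among all tested genes. Ehf lies between Apip, whose start is 230 kb away, and Elf5, 108 kb away with at most 1 count. Apip fell at 12 h (log2FC -1.14, adjusted p = 0.00188), by less than Ehf. Of the 7 other tested genes within 500 kb of Ehf, 3 were called lower and 2 higher. The lower genes were Apip, Cat (log2FC -0.78, adjusted p = 0.00242) and Pdhx (-0.49, adjusted p = 0.00666), the last of which was lost without the first 12 h library (adjusted p = 0.0522). The 2 higher genes were Abtb2 at 263 kb (log2FC 3.69, adjusted p = 0.000110) and Cd44 at 402 kb. All but Apip were named after their values were seen. Abtb2 rose from 3.65 and 5.86 CPM in veh to 59.96 and 62.66 CPM at 12 h, the opposite of Ehf in the same libraries. Next to Elf3, Rnpep at 25.6 kb had a log2FC of 0.20 (adjusted p = 0.262), and Gpr37l1 had 3 to 9 counts. Of the 9 tested genes within 500 kb of Elf3, 3 were called higher (Lgr6, Csrp1 and Shisa4) and 1 lower (Ube2t), all named after their values were seen. The neighbors of Grhl1, Taf1b (log2FC at 2 h 0.053, adjusted p = 0.843) and Klf11 (-0.068, adjusted p = 0.866), were not called at 2 h, when Grhl1 was. At 12 h 2 of the 5 other tested genes within 500 kb of Grhl1 were called lower, Cys1 (log2FC -2.10) and Rrm2 (-3.10), both named after their values were seen. Next to Esrp2, neither Nfatc3 (log2FC 0.061 at 12 h) nor Pla2g15 (0.33) was called. Ncald, the next counted gene above Grhl2 at 560 kb, fell at 12 h (log2FC -1.70, adjusted p = 0.000817), whereas Zfp706 on the other side was not called (0.12, adjusted p = 0.519). Next to Grhl3, Nipal3 at 78.6 kb fell at 12 h (log2FC -0.80, adjusted p = 0.00362). Next to Ovol1, Snx32 at 50.1 kb was called lower at 2 h (log2FC -0.93, adjusted p = 0.0237) and at 12 h (-0.89, adjusted p = 0.0103). The 2 h call of Snx32 was lost without either veh or either 12 h library (adjusted p of 0.0547 to 0.102), and the 12 h call without the first 12 h library (adjusted p = 0.0761). Ap5b1 on the other side of Ovol1 was not called at 12 h (0.26, adjusted p = 0.246). Neither were Dpy19l4 and Virma next to Esrp1, Snx5 and Kat14 next to Ovol2, or Taf3 next to Gata3, with log2FC between -0.060 (Snx5) and 0.42 (Taf3). The other neighbors of Grhl3 and Gata3 had 0 counts.

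**Figure D4:**
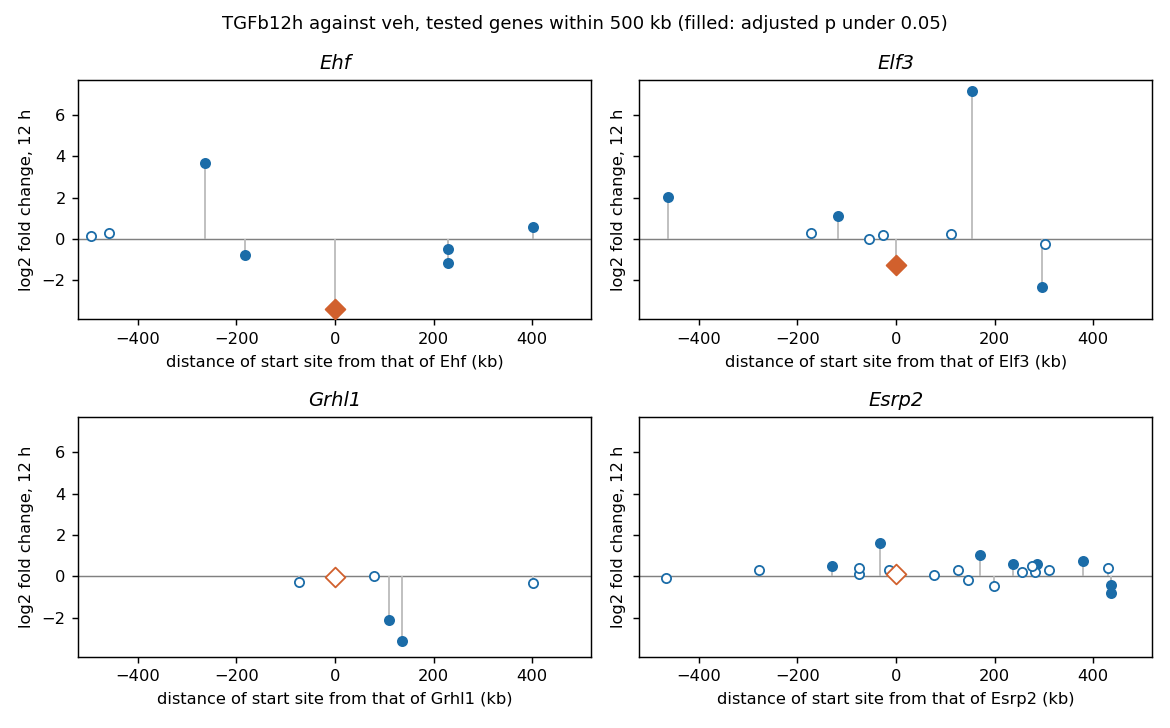
Log2FC at 12 h against veh (y axis) of tested genes within 500 kb of Ehf, Elf3, Grhl1 and Esrp2, by distance in kb between starts (x axis), positive in the direction in which the central factor is transcribed. Circles are neighboring genes, the diamond at 0 is the factor itself, and filled symbols were called. Around Ehf (-3.36), Abtb2 stands at 3.69, and around Esrp2 6 of 22 other tested genes are called higher and 2 lower.

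The genes whose levels followed those of Ehf and Elf3, the factors called at 12 h against veh, most closely were found by Pearson correlation of log2 CPM over the 6 libraries, a description in which all points share library and depth. For Ehf the 3 closest were Hp, Ugt2b36 and Pls1, each with r = 0.998, and 108 genes had r above 0.99. Pls1, which encodes a microvillar actin bundler, fell to 23.1 and 14.9 CPM at 12 h from 104.5 and 92.3 CPM in veh (log2FC -2.37, adjusted p = 0.000424). Haptoglobin, encoded by Hp, went from 34.7 and 20.5 CPM in veh to 6 and 2 counts at 12 h. Elf3 was followed most closely by Pgk1 (r = 0.995), Exosc10 (r = 0.994) and Dpysl2 (r = 0.9896), and only 2 genes were above 0.99. The size of a change does not enter r: Exosc10 had a log2FC of -0.18 at 12 h against veh (adjusted p = 0.169) and was not called. Pgk1, a glycolytic enzyme, shared with Elf3 the low first veh library (43.7 against 66.2 CPM) and the fall at 12 h (log2FC -1.09, adjusted p = 0.00921).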

How the data were processed

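RNA of NMuMG cells was sequenced by the authors as single 50 bp reads from stranded total RNA libraries. The deposited values are raw counts per gene. According to the methods, the authors filtered reads, aligned them to mm9 with subjunc of the Subread package, kept unique alignments, removed duplicates with SAMtools 0.1.19 and counted reads over exons by strand with featureCounts, so that unspliced RNA and isoforms are not resolved and removal of duplicates can lower high counts. Groups followed the labels, and the table held 0 columns of other samples. The members and gene lists were chosen with earlier results of these data known.

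Counts were tested in R 4.3.3 with edgeR 4.0.16 (quasi-likelihood test, TMM factors, at least 2 CPM in at least 2 libraries, 1 fit of 3 groups, two-sided, Benjamini-Hochberg within each contrast). The fit was also run on simulated data with independent libraries and the same spread for all genes, which does not check the p-values given here. The SE is the log2FC divided by the square root of F. CPM were scaled by TMM factors. Ratios of counts under the filter have exact conditional intervals for counting error only. Tried instead were limma-voom (limma 3.58.1), DESeq2 1.42.0, its size factors, total counts, no filter, a filter of 10 counts in each library, a replicate block, only the 2 groups compared, a prior count of 2, and leaving out each library. Named were all 10 members, genes of other lists called with an absolute log2FC above 1 (up to 4 per direction at 12 h) or below the filter, adjacent counted genes, and the 3 closest genes by correlation, and other genes named were chosen after their values were seen. Results for some listed genes are not reported here. Positions and lengths came from GENCODE vM1 on NCBIM37, the build called mm9 by UCSC (18835 genes matched by symbol, 1631 by synonym, 774 not placed), and promoters from RefSeq on GRCm38.p6, which had entries for 5 of the 10 members. Promoters were searched on both strands for 6 motifs. The AP-1 motif TGANTCA was present in 7.81% of 32851 windows, the E-box CACCTG in 20.2%, the Smad element CAGAC in 49.6%, the Grainyhead motif AACCNGTT in 2.09%, the Ets element AGGAAG in 35.4% and the GATA motif AGATAA in 11.2%. Of these, the 6 member windows held E-box, Smad and Ets matches.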

Additional observations from a re-analysis of the deposited data

Results flagged for a closer look

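For 3 factors the change from veh differed between the 2 times, as tested by the contrast of 12 h against 2 h in edgeR's quasi-likelihood test. The difference was a log2FC of -3.01 for Ehf (adjusted p = 0.000692), -1.37 for Elf3 (adjusted p = 0.00869) and -1.09 for Grhl1 (adjusted p = 0.0148). Both 12 h libraries were below both 2 h libraries for each of the 3. The difference for Elf3 was lost without the first 12 h library (adjusted p = 0.0806), and that for Grhl1 without either 12 h library (adjusted p of 0.102 and 0.0919). Single libraries far from their group could not be sought, because groups held 2 libraries.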

How the results depend on the processing

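The fall of Ehf at 12 h was called under all 15 alternatives, and Elf3 at 12 h under all but the one without the first 12 h library. At 2 h, 1 factor was called, against 2 with no filter, 2 with the replicate block, 0 in a fit of only these groups and 0 to 1 when 1 library was left out. The numbers of all genes called at 2 h were 1680 in the reported fit, 3222 with the replicate block, 893 with only the 2 groups and 637 to 2200 with a library left out. With a library left out, 1 to 2 factors and 2900 to 5419 genes were called at 12 h (2 and 4799 reported), and 1 to 3 factors and 1683 to 3821 genes between the times (3 and 3775 reported). With no filter, which adds Grhl2, 3 factors were called at 12 h.

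Directions that turned belonged to changes that were not called. The log2FC of Elf3 at 2 h was -0.016 by total counts and ran from -0.24 (without the first veh library) to 0.54 with a library left out. That of Grhl1 at 12 h ran from -0.096 to 0.076 (without the first veh library). That of Esrp2 at 12 h was -0.024 by total counts and ran from -0.040 (without the second 12 h library) to 0.23, being -0.0090 without the second veh library. That of Cdh1 at 12 h ran from -0.23 to 0.039 (without the second 12 h library), being 0.036 without the first veh library. The cause was not tested. Scaling by total counts moved the median of all genes by -0.111 at 2 h and -0.129 at 12 h. Alternatives for genes and lists other than the 10 factors were added after seeing the data.

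Replicate numbers were shared by the groups, but the labels do not say that equal numbers mark a shared culture. Deviations of equal-numbered libraries correlated at 0.708, 0.263 and 0.392, with 2 pairs only, so no pairing was assumed. With the replicate block the common coefficient of variation between replicates was 0.091, against 0.148 in the reported fit. With that block Ehf was called at 2 h (log2FC -0.38, adjusted p = 0.0351). With 2 libraries per group, p-values rest on a spread pooled over genes and groups, and 3 counts set the limit below which Esrp1, Ovol1 and Grhl3 could not be compared.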
